A study of Mus musculus with 20 samples.

Results

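The expression of 10 transcription factor genes of the airway epithelium was followed in whole mouse trachea: Nkx2-1 (named Titf1 on the array), Foxa1, Foxa2, Sox2, Elf3, Elf5, Ehf, Klf4, Klf5 and Grhl2. All array probes that carry the name of one of these genes were taken, which gave 10 of 27962 gene names on the array and 15 of its 41174 probes. Of these, 14 were among the 26064 probes bright enough to be tested, and each of the 10 genes kept at least 1 tested probe. RNA came from 20 tracheas, 5 in each of 4 groups: uninjured wild-type, uninjured Myd88KO, and the same genotypes 3 d after a single dose of 2% polidocanol, a detergent that strips the surface epithelium of the airway. All mice were C57/Bl6 adults, labelled as 4 months old, and no sex was given for single samples. Myd88KO mice lack the gene for the adaptor protein of most Toll-like receptors in every cell and were bred to each other, apart from the colony that supplied the wild-type mice, so that genotype and colony cannot be told apart.

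These factors set what an airway cell is. Nkx2-1 is the homeodomain protein that lung, trachea and thyroid require to form, and the forkhead proteins Foxa1 and Foxa2 open closed chromatin and act with it on genes for secretory and surfactant proteins. Sox2 marks the conducting airway and is needed by its basal, secretory and ciliated cells. Elf3, Elf5 and Ehf are Ets proteins found mainly in epithelia, Klf4 and Klf5 are zinc finger proteins of barrier and progenitor programmes, and Grhl2 keeps up the junctions that hold an epithelial sheet together. In a whole trachea a lower value can come from fewer cells that use the gene or from less RNA in each cell, and these cannot be told apart.

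The values are log2 intensities relative to the 75th percentile of the same array, so that 0 is the brightness that 75% of its probes do not exceed. Groups were compared for 1 probe at a time, and levels were not compared between probes. From 57.5% to 67.8% of probes were well above background on each array, and arrays within a group correlated at 0.925 to 0.990. Myd88 itself was at 2.36 to 2.80 in injured wild-type and at 1.54 to 2.09 in injured Myd88KO tracheas (difference −0.77, SE 0.14, limma adjusted p = 0.00824). Its groups overlapped without injury, at 1.94 to 2.28 in wild-type and 1.60 to 2.04 in Myd88KO tracheas. Per the file headers, the 4 arrays that share a replicate number lay on 1 slide, and the slides of replicates 2, 3 and 4 were scanned on another day than those of replicates 1 and 5. Injured Myd88KO replicate 5 stood apart: the summed level of 6 proliferation genes was 1.64 there, 3.61 to 5.00 on the other injured Myd88KO arrays and 1.08 to 2.43 on the uninjured ones. Counts of called genes that change without this array are given both ways below, and the factors are also given within each scanning day.

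No factor passed the test after injury in either genotype (limma, adjusted p under 0.01, with p-values adjusted over all 26064 probes). In wild-type tracheas 0 of 14 probes passed, where 5.26% of all probes did. At an unadjusted p under 0.05, 5 of the 14 were lower and 0 were higher, beside 11.9% lower among all probes, and the difference was below 0 for 13 of 14 beside 50% of all probes. The groups overlapped for all 14 probes, beside 12.6% of all probes without overlap. The 5 were the probes of Foxa2, Elf5 and Klf4 and the brightest probes of Ehf and Grhl2. The median difference of the 14 was −0.28, and that of all tested probes was 7.9e-05. In Myd88KO tracheas 0 of 14 passed, beside 0.376% of all probes, and 3 were lower at an unadjusted p under 0.05 (Nkx2-1, Foxa2 and Elf5), beside 12.2% lower among all probes. The difference was below 0 for 9 of 14, beside 57.7% of all probes, and the groups overlapped for all 14, beside 3.45% without overlap. The median of the 14 was −0.10 there and that of all probes −0.07. The study's methods name a one-way test over the samples of both genotypes. Here such a test was run on only the groups of each comparison. It also called 0 of 14 in each genotype, beside 4.02% of all probes in wild-type and 0% in Myd88KO. In Myd88KO it called no probe at all, so that its count there says nothing about the factors.

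**Figure D1:**
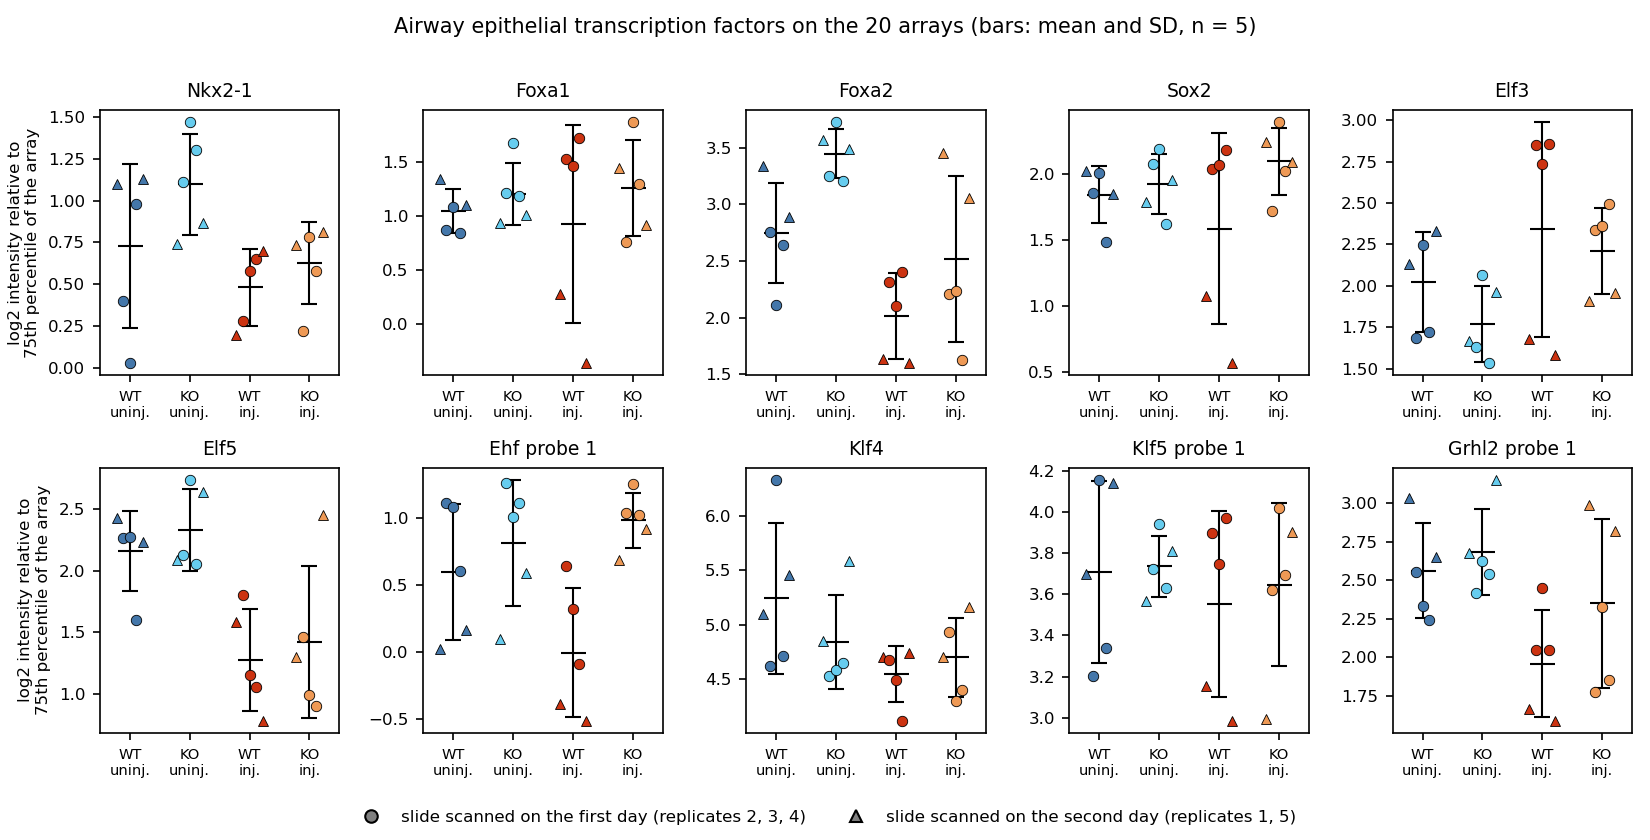
The level of each factor on all 20 arrays, as log2 intensity relative to the 75th percentile of the array, for the brightest probe of each gene in the 4 groups of 5. Horizontal marks and bars are means and SD, circles are slides scanned on the first day and triangles those scanned on the second day. The triangles of injured wild-type tracheas lie below the circles for Foxa1, Foxa2, Sox2, Elf3, Ehf, Klf5 and Grhl2.

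Nkx2-1 was measured with 1 probe (chromosome 12, 54462492 to 54462551, minus strand, in the coordinates of the array design, whose build the files do not name). On uninjured wild-type arrays its log2 level was 1.10, 0.40, 0.03, 0.98 and 1.13 for replicates 1 to 5, and on uninjured Myd88KO arrays 0.74, 1.11, 1.47, 1.30 and 0.87. After injury it was 0.20, 0.28, 0.58, 0.65 and 0.70 in wild-type and 0.74, 0.22, 0.78, 0.58 and 0.81 in Myd88KO tracheas. Replicates 2 and 3 were low among the uninjured wild-type arrays, and all groups overlapped. The difference after injury was −0.25 (SE 0.21, adjusted p = 0.492) in wild-type and −0.47 (SE 0.21, adjusted p = 0.225) in Myd88KO tracheas, where the injured array was below the uninjured one on all 5 slides. Of the 14 tested probes, 4 had the same sign on all 5 slides for wild-type injury and 3 for Myd88KO injury. The share of all probes with this trait was not counted, here or for the factors below, and the labels do not pair the samples of a slide.

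Nkx2-1 is also a thyroid factor, and thyroid genes were read in these samples. Thyroglobulin (Tg), the main protein of the thyroid follicle, had log2 levels of 7.97, 6.53, 7.02, 8.37 and 8.21 on uninjured wild-type arrays, and 7.49, 8.49, 8.83, 8.15 and 6.40 on uninjured Myd88KO arrays. It was at 7.80, 7.39, 6.92, 8.06 and 8.58 in injured wild-type and at 7.52, 7.27, 6.57, 7.75 and 6.93 in injured Myd88KO tracheas. Among uninjured wild-type arrays the 3 with the highest Tg were the 3 with the highest Nkx2-1, and among uninjured Myd88KO arrays the 2 with the lowest Tg were the 2 with the lowest Nkx2-1. In injured wild-type tracheas the 2 with the highest Tg were also the 2 with the highest Nkx2-1, and in injured Myd88KO tracheas the 2 with the lowest Tg were the 2 with the highest Nkx2-1. Of 5 thyroid genes (Tg, Tshr, Pax8, Slc5a5 and Foxe1) 4 were tested and 0 passed by limma, with medians of −0.17 after injury in wild-type and −1.19 in Myd88KO tracheas. At an unadjusted p under 0.05, 0 of the 4 were lower in wild-type and 2 in Myd88KO, and the one-way test was not run on this list. The part of thyroid RNA in the Nkx2-1 values was not tested.

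**Figure D2:**
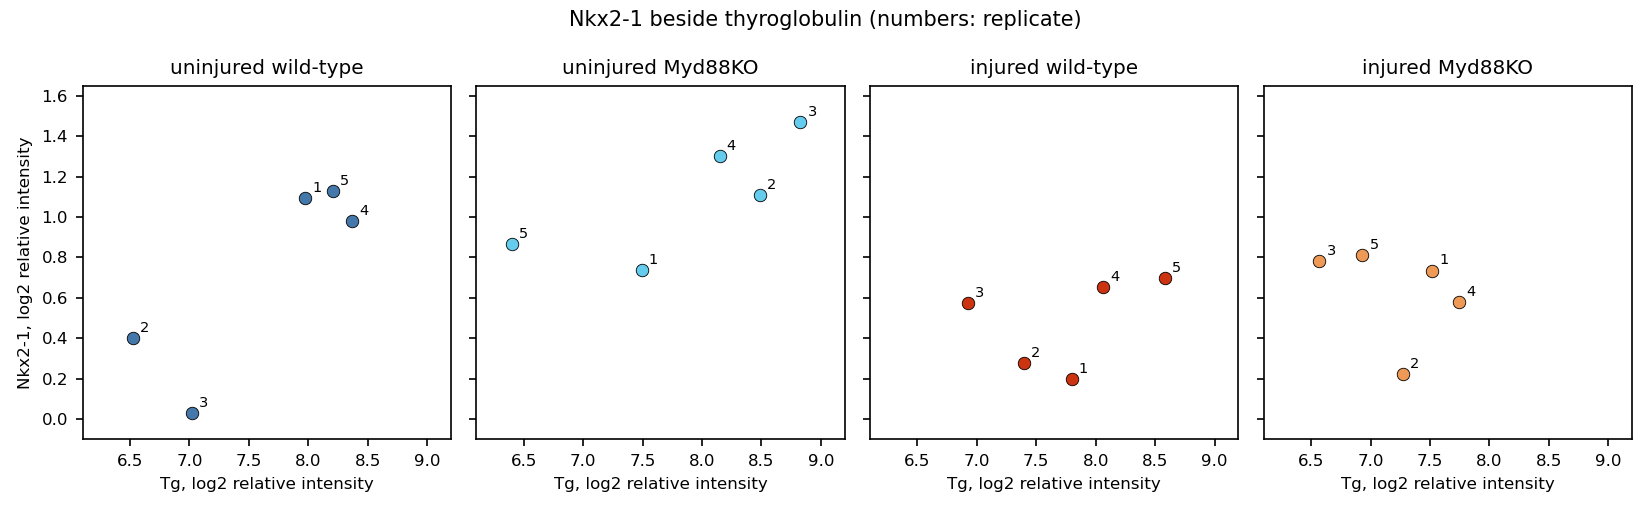
Nkx2-1 (vertical axis) against thyroglobulin, Tg (horizontal axis), both as log2 intensity relative to the 75th percentile of the array, with 1 point per array and its replicate number. In uninjured wild-type tracheas replicates 1, 4 and 5 are high for both genes, as are 4 and 5 in injured wild-type tracheas, and in injured Myd88KO tracheas replicates 3 and 5 are low for Tg and high for Nkx2-1.

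Foxa1 and Foxa2 differed in how they varied. Foxa1 was at 1.34, 0.87, 1.08, 0.85 and 1.10 on uninjured wild-type arrays and at 0.93, 1.21, 1.68, 1.18 and 1.01 on uninjured Myd88KO arrays. The injured arrays were at 0.27, 1.52, 1.46, 1.72 and −0.36 in wild-type and at 1.45, 0.76, 1.87, 1.30 and 0.91 in Myd88KO tracheas. The injured wild-type arrays formed a high set, replicates 2, 3 and 4, above every uninjured array of that genotype, and a low set, replicates 1 and 5, below every one. The mean difference was −0.12 in wild-type (95% interval −0.80 to 0.55, adjusted p = 0.848) and 0.06 in Myd88KO (−0.62 to 0.73, adjusted p = 0.946), and the injured wild-type mean of 0.92 lay between the high and the low set.

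Foxa2 was at 3.34, 2.76, 2.12, 2.64 and 2.89 in uninjured wild-type and at 3.57, 3.25, 3.73, 3.21 and 3.49 in uninjured Myd88KO tracheas. The injured values were 1.64, 2.32, 2.11, 2.41 and 1.60 in wild-type and 3.46, 2.21, 2.23, 1.63 and 3.06 in Myd88KO. On all 5 slides the injured array was below the uninjured one in both genotypes, but the groups overlapped. The differences were −0.73 in wild-type (SE 0.29, adjusted p = 0.106) and −0.93 in Myd88KO (SE 0.29, adjusted p = 0.0823). Uninjured Myd88KO arrays were above the wild-type array of the same slide on all 5 slides, with a mean difference of 0.70 (SE 0.29, adjusted p = 0.732), the 1 probe of 14 with an unadjusted p under 0.05 in that comparison, where 0 of 14 passed the test by limma and 0 by the one-way test. Among all probes 0.384% passed by limma and 0.176% by the one-way test, and 5.59% had such a p.

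Sox2 was at 2.02, 1.85, 2.01, 1.49 and 1.85 on uninjured wild-type arrays and at 1.79, 2.07, 2.19, 1.62 and 1.96 on uninjured Myd88KO arrays. Injured tracheas had 1.08, 2.04, 2.07, 2.19 and 0.57 in wild-type and 2.24, 1.72, 2.40, 2.03 and 2.09 in Myd88KO tracheas. Replicates 1 and 5 were again the low arrays of the injured wild-type group, and the other 3 lay just above the uninjured wild-type range. Neither difference passed the test, at −0.26 (SE 0.25, adjusted p = 0.561) and 0.17 (SE 0.25, adjusted p = 0.764). Over the 20 arrays, each gene centred on its uninjured wild-type mean, the root mean square difference between Foxa1 and Sox2 was 0.20, the smallest of any pair when each factor was taken by its brightest probe, and that between Sox2 and Klf5, the next such pair, was 0.34. The dimmer Grhl2 probe 2 was as near to Klf5, at 0.20. Sox21, another Sox gene, lay at the same distance of 0.20 from Foxa1. Among all named genes Sox21 and Gal3st1 lay nearer to Sox2 than Foxa1 did, at 0.18 and 0.19. These likenesses were picked after the values were seen.

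The region around the start of Foxa1 and that of Sox2 are shown because their values were the most alike among the factors. That of Elf3 is shown for its split between slides, and both starts of Elf5 because it was the factor whose call turned on 1 array. All were chosen after the values were seen. The sequences are from RefSeq (GRCm38.p6), 250 bases before to 50 after the start, for which 7 of the 10 genes had an entry (not Ehf, Klf5 and Grhl2). Capitals mark matches on either strand to AGGAAG (Ets), AACCGGTT (Grhl), CACCC (Klf), TGTTTAC and TGTTTGC (Foxa), CACTTGA (Nkx2-1), ACAAAG (Sox) and the NF-kB motif.
Foxa1, chr12:57546062-57546361, minus strand: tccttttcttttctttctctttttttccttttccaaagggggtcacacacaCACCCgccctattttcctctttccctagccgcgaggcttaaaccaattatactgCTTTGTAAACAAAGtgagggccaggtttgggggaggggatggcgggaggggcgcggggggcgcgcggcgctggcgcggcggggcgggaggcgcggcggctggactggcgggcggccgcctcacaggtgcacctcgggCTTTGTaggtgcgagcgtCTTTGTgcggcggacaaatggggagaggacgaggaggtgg
Sox2, chr3:34649745-34650044, plus strand: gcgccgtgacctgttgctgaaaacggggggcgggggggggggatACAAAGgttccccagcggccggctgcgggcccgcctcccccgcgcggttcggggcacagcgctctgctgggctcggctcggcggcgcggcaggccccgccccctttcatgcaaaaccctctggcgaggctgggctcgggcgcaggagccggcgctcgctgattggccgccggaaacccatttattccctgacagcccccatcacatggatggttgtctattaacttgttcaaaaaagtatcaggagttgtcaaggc
Elf3, chr1:135258423-135258722, minus strand: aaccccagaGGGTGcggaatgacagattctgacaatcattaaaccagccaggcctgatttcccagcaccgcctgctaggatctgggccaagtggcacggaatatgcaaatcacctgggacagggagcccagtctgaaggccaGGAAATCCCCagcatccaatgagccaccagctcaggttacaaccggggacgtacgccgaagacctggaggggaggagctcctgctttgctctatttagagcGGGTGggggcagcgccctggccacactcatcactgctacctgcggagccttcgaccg
Elf5, first start, chr2:103411848-103412147, plus strand: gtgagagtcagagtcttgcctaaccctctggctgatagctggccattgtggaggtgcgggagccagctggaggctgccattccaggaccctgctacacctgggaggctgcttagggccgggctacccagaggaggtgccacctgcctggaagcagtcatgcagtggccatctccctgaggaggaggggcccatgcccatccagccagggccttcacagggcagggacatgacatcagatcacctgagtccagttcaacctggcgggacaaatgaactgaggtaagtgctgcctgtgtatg
Elf5, second start, chr2:103423818-103424117, plus strand: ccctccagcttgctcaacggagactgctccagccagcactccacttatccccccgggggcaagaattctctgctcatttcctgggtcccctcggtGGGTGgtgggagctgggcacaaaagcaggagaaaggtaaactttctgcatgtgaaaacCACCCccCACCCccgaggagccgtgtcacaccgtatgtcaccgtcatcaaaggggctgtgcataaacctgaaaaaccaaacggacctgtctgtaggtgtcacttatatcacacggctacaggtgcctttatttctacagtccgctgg

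In the Foxa1 window a Foxa match on the reverse strand, at −141 to −135 from the start, overlapped a Sox match on each side of it, so that the stretch CTTTGTAAACAAAG from −145 to −132 held all 3. It held 2 further Sox matches near the start and 1 Klf match. The Sox2 window held 1 Sox match, 206 bases before the start. That of Elf3 held an NF-kB match on the reverse strand, at −108 to −99, and 2 Klf matches. The first Elf5 window held no match and the second held 3 Klf matches. Of 32851 promoter windows of this length in the table, 18.7% held the Sox letters, 57.5% the Klf letters, 35.4% the Ets letters, 3.65% TGTTTAC, 5.07% TGTTTGC, 3.06% the Nkx2-1 letters, 1.63% the NF-kB motif and 0.146% the Grhl letters. These are matches of letters only, and binding was not measured.

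Elf5 had the largest injury difference of the Ets factors. It was at 2.43, 2.27, 2.27, 1.60 and 2.24 on uninjured wild-type arrays and at 2.09, 2.13, 2.74, 2.05 and 2.64 on uninjured Myd88KO arrays. Injured values were 1.59, 1.81, 1.15, 1.06 and 0.78 in wild-type and 1.30, 1.46, 0.99, 0.90 and 2.46 in Myd88KO. In each genotype the groups overlapped, through uninjured wild-type replicate 4 and through injured Myd88KO replicate 5. The difference was −0.88 in wild-type (SE 0.27, 1.85-fold lower, adjusted p = 0.0347) and −0.91 in Myd88KO (SE 0.27, 1.88-fold lower, adjusted p = 0.0669), with the injured array lower on all 5 slides in both, and neither passed 0.01. Without injured Myd88KO replicate 5, Elf5 was called lower in both genotypes. The difference in Myd88KO was then −1.17 (adjusted p = 0.00308) and that in wild-type −0.88 (adjusted p = 0.00877), where 4.12% and 7.07% of all probes were called. The wild-type arrays and their difference were the same as in the full fit, and only the variance pooled over the groups and the adjustment changed. Over the 12 alternatives other than leaving out an array, Elf5 was called in 0 for wild-type (lowest adjusted p = 0.0191) and in 1 for Myd88KO. In all other fits that left out 1 array Elf5 was not called in either genotype.

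Elf3, which is induced in many epithelia under stress, was the 1 factor with a higher mean in both genotypes. It was at 2.13, 1.69, 2.25, 1.72 and 2.33 on uninjured wild-type arrays and at 1.67, 1.63, 2.06, 1.53 and 1.96 on uninjured Myd88KO arrays. After injury it was at 1.68, 2.85, 2.74, 2.85 and 1.58 in wild-type and at 1.91, 2.34, 2.36, 2.49 and 1.96 in Myd88KO tracheas. In both genotypes replicates 2, 3 and 4 lay above every uninjured array and replicates 1 and 5 lay within or below the uninjured range. The differences of 0.32 (SE 0.25, adjusted p = 0.44) and 0.44 (SE 0.25, adjusted p = 0.338) did not pass the test.

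Ehf had 3 probes. With the brightest, probe 1, it was at 0.02, 1.11, 1.08, 0.61 and 0.16 on uninjured wild-type arrays and at 0.10, 1.26, 1.01, 1.12 and 0.59 on uninjured Myd88KO arrays. Injured arrays had −0.39, 0.64, 0.32, −0.09 and −0.52 in wild-type and 0.68, 1.04, 1.25, 1.02 and 0.92 in Myd88KO. The injured Myd88KO arrays were all above the injured wild-type arrays. The injury difference was −0.60 in wild-type (SE 0.26, adjusted p = 0.149), lower on all 5 slides, and 0.17 in Myd88KO (SE 0.26, adjusted p = 0.773). Probe 2 gave −0.39 and −0.04, and probe 3 gave −0.31 and −0.12.

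Between the injured genotypes 0 of 14 probes passed the limma test, beside 0.38% of all probes, and 0 passed the one-way test, beside 0.0806%. At an unadjusted p under 0.05, 3 of 14 were higher in Myd88KO, all of them Ehf probes, beside 4.43% of all probes. The groups did not overlap for 1 of 14, Ehf probe 1, beside 0.694% of all probes higher without overlap. Its difference was 0.99 (SE 0.26, 1.98-fold higher, adjusted p = 0.106), and those of probes 2 and 3 were 0.57 (SE 0.22, adjusted p = 0.27) and 0.49 (SE 0.20, adjusted p = 0.314). On the 5 slides the injured Myd88KO array exceeded the injured wild-type one by 0.40 to 1.44 with probe 1, and probes 2 and 3 were higher on 4 of 5, with the opposite sign on the slide of replicate 1. When the slide entered the fit as a block, probe 1 passed (adjusted p = 0.0022, where 0.43% of all probes were called), and with the scanning day as a block its adjusted p was 0.00182 (0.522% called). Over the 12 alternatives other than leaving out an array the adjusted p of probe 1 ran from 0.00182 to 0.326. Those of probes 2 and 3 ran from 0.132 to 0.585 and from 0.161 to 0.598. The injury responses themselves differed by 0.77 with probe 1 (SE 0.37, adjusted p = 0.486), and 0 of 14 probes passed that test, 0 of them at an unadjusted p under 0.05, beside 0% and 10.4% of all probes.

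**Figure D3:**
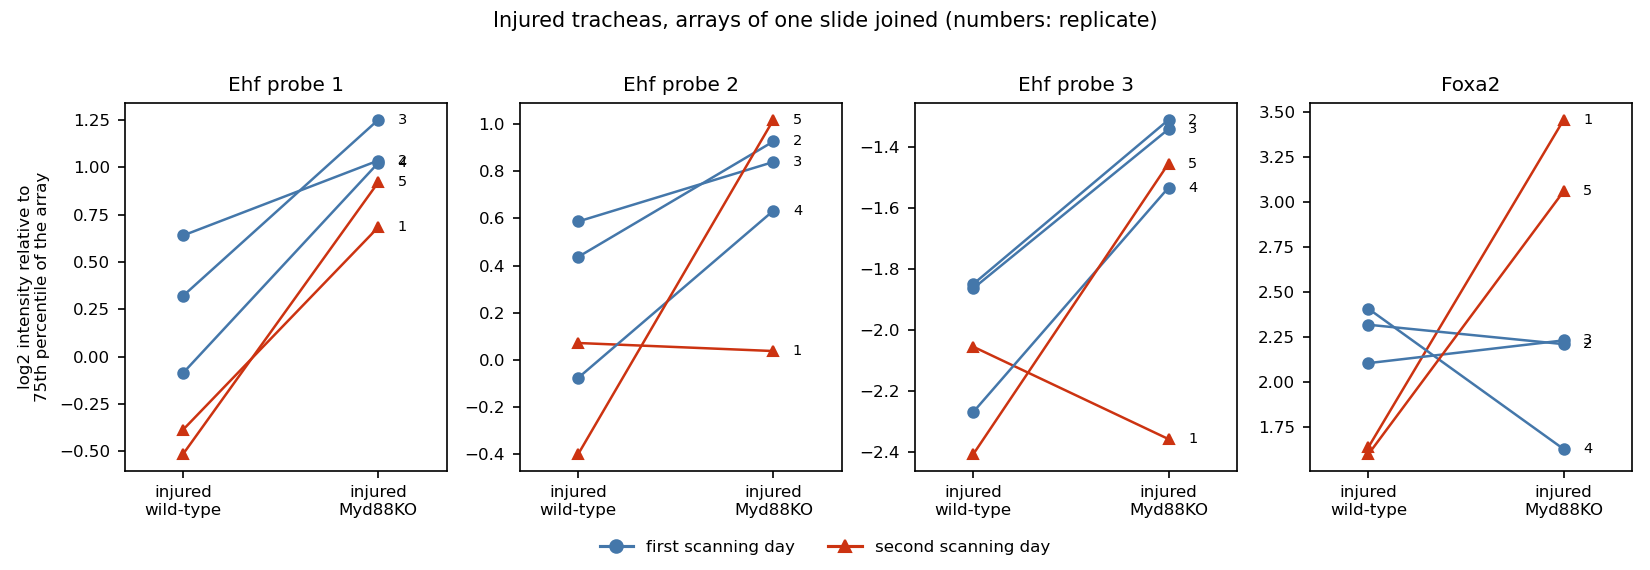
Log2 levels of the 3 Ehf probes and of Foxa2 in injured tracheas, with the wild-type and Myd88KO array of the same slide joined by a line and numbered by replicate. All 5 lines of Ehf probe 1 rise, those of probes 2 and 3 rise on 4 slides, and the 2 lines of Foxa2 that rise steeply are those of the second scanning day.

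Klf4, which acts in barrier formation and also in endothelial and myeloid cells, was at 5.10, 4.61, 6.34, 4.71 and 5.46 on uninjured wild-type arrays and at 4.85, 4.52, 4.59, 4.65 and 5.58 on uninjured Myd88KO arrays. Injured tracheas had 4.70, 4.68, 4.49, 4.11 and 4.74 in wild-type and 4.70, 4.94, 4.29, 4.40 and 5.17 in Myd88KO tracheas. The uninjured wild-type replicate 3 was far above the rest of its group, and the groups overlapped. The differences were −0.70 (SE 0.28, adjusted p = 0.114) and −0.14 (SE 0.28, adjusted p = 0.832). Of 7 endothelial and smooth muscle genes 0 passed in either genotype by limma, 0 and 2 were lower at an unadjusted p under 0.05, and the medians were 0.03 and −0.35.

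Klf5, a factor of proliferating progenitor cells, was at 3.70, 3.20, 4.16, 3.34 and 4.14 with its brightest probe on uninjured wild-type arrays and at 3.57, 3.72, 3.94, 3.63 and 3.81 on uninjured Myd88KO arrays. It was at 3.16, 3.90, 3.75, 3.97 and 2.99 in injured wild-type and at 3.00, 3.62, 4.02, 3.69 and 3.90 in injured Myd88KO tracheas. Replicates 1 and 5 were the low arrays of the injured wild-type group here too. The differences were −0.16 (95% interval −0.65 to 0.34) and −0.09 (−0.58 to 0.40), and those of the dimmer probe 2 were −0.26 and 0.06. Among proliferation genes 4 of 6 rose in wild-type and 0 of 6 in Myd88KO tracheas, where 3.24% and 0.134% of all probes were called higher, with medians of 2.53 and 2.11. All 6 were higher at an unadjusted p under 0.05 in each genotype, and without injured Myd88KO replicate 5 the counts were 5 and 5.

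Grhl2 was read by 3 probes, of which probe 3 was well above background on 2 of 20 arrays and was not tested. Probe 1 was at 3.03, 2.55, 2.33, 2.24 and 2.65 on uninjured wild-type arrays and at 2.68, 2.41, 2.62, 2.54 and 3.15 on uninjured Myd88KO arrays. After injury it was at 1.66, 2.05, 2.45, 2.05 and 1.59 in wild-type and at 2.98, 1.77, 2.33, 1.85 and 2.82 in Myd88KO tracheas. Injured wild-type replicates 1 and 5 were low and injured Myd88KO replicates 1 and 5 were high, as for Foxa2. The differences were −0.60 (SE 0.24, adjusted p = 0.107) and −0.33 (SE 0.24, adjusted p = 0.476). Probe 2, which lies in another part of the gene, gave −0.21 (SE 0.22) and −0.11 (SE 0.22).

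The scanning day, which was the same for all arrays of a slide, split the injured wild-type group. Taken within the day of replicates 2, 3 and 4, the wild-type injury difference of Elf3 was 0.93 (adjusted p = 0.0117), and within that of replicates 1 and 5 it was −0.60. For Foxa1 these values were 0.64 and −1.26, for Sox2 0.31 and −1.11, and for Klf5 0.31 and −0.85. With the brightest probe of each gene, 5 of 10 factors were above 0 on the first day and below 0 on the second, and the other 5 (Foxa2, Elf5, Ehf, Klf4 and Grhl2) were below 0 on both. Of the split ones, Nkx2-1 was near 0 on the first day, at 0.03 (SE 0.24), with −0.67 on the second. Dimmer probes of 2 genes went another way: Grhl2 probe 2 had 0.36 and −1.06, and Klf5 probe 2 had −0.06 and −0.56. The share of all probes with such a split was not counted.

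Foxa2 had −0.23 on the first day and −1.50 on the second (adjusted p = 0.0106), and Grhl2 probe 1 had −0.19 and −1.21. Elf5 was less unequal at −0.71 and −1.15, and Ehf probe 1 was nearly level at −0.64 and −0.54. A limma test of the difference between the days, added after the split was seen, called 0 of 14 for wild-type injury (0% of all probes), with 7 at an unadjusted p under 0.05 beside 10.1% of all probes and a lowest adjusted p of 0.0987, that of Elf3. In Myd88KO it called 0 of 14, with 1 such p beside 12.8% of all probes.

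In the Myd88KO group the days differed in another way. Foxa2 fell by 1.37 on the first day (adjusted p = 0.00479, where 4.07% of all probes were called) and had a difference of −0.27 on the second. Between the injured genotypes Foxa2 and Sox2 were higher in Myd88KO on the second day, by 1.64 (adjusted p = 0.00542) and 1.34 (adjusted p = 0.00991) with 2 arrays a group, where 4.8% of all probes were called. Their first-day values were −0.25 and −0.05. The difference between days in this comparison passed for 2 of 14 probes, Foxa2 (1.89, SE 0.35, adjusted p = 0.00403) and Grhl2 probe 1 (1.47, SE 0.29, adjusted p = 0.00658), beside 2.83% of all probes. Each slide also holds other mice, so that the scanning day and the mice cannot be told apart.

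Epithelial genes that are not transcription factors split along with some of these. The mean of 10 pan-epithelial genes (Cdh1, Epcam, Cldn7, Esrp1, Esrp2, Rab25, Spint1, Spint2, St14 and Ap1m2), centred over the arrays, was −0.67, 0.63, 0.38, 0.53 and −0.74 in injured wild-type and −0.05, 0.30, 0.33, 0.17 and −0.24 in injured Myd88KO tracheas. It was low on injured wild-type replicates 1 and 5. With their brightest probes, Foxa1, Foxa2, Sox2, Elf3, Ehf, Klf5 and Grhl2 were also lowest in that group on these arrays. Of the 10 genes 0 passed the test after injury in either genotype by limma, with 0 at an unadjusted p under 0.05 and medians of 0.09 and 0.19.

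With this mean subtracted from each array, the pooled SD within groups went from 0.54 to 0.33 for Foxa1, from 0.41 to 0.28 for Sox2 and from 0.40 to 0.24 for Elf3. With the brightest probes it went up for those named as lower on both days save Ehf. It went from 0.48 to 0.63 for Foxa2 and from 0.44 to 0.59 for Elf5. For Klf4 it went from 0.47 to 0.64 and for Grhl2 probe 1 from 0.39 to 0.57. It also went up for Nkx2-1, from 0.33 to 0.58. For Ehf probe 1 it went from 0.43 to 0.34, but for probes 2 and 3 it went up, from 0.344 to 0.375 and from 0.318 to 0.384. For Klf5 it went from 0.379 to 0.333 with probe 1 and from 0.405 to 0.518 with probe 2. Grhl2 probe 2 had 0.344 before and 0.337 after. Relative to the mean 0 of 14 probes passed in each genotype by limma, beside 1.63% and 0.0767% of all probes. By limma 4 and 2 were lower at an unadjusted p under 0.05, beside 7.11% and 6.68%. The one-way test also called 0 of 14 in each, beside 0.921% and 0.00384% of all probes. In Myd88KO that test called 1 of 26064 probes, so that its 0 there says nothing about the factors. The scaling moved the median of all probes to −0.11 and −0.22, and the medians of the factors were −0.39 and −0.25. Ciliated cell genes split in the same arrays: their summed level was 2.35 and 2.66 on injured wild-type replicates 1 and 5 and 4.79 to 5.69 on the other 3, and its part in the factors' values was not tested.

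**Figure D4:**
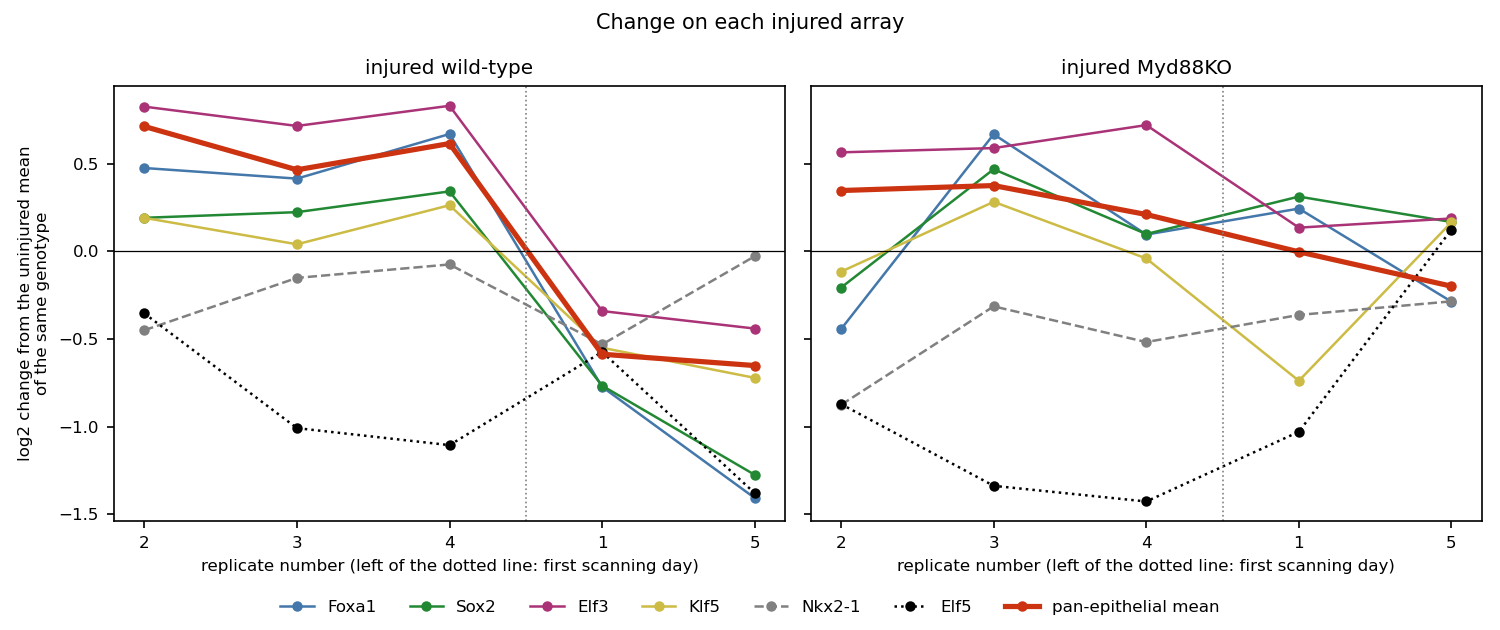
The log2 change of 6 factors and of the pan-epithelial mean on each injured array, from the uninjured mean of the same genotype, with replicates ordered by scanning day and lines that only join the values of 1 gene (Klf5 by probe 1). In wild-type tracheas Foxa1, Sox2, Elf3, Klf5 and the mean are above 0 on replicates 2, 3 and 4 and below 0 on 1 and 5, and Elf5 is below 0 on all 5.

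Several genes on which Nkx2-1 and the Foxa factors are known to act passed the test after injury. Of 9 such genes, 5 fell in wild-type tracheas and 3 in Myd88KO tracheas, with median differences of −1.87 and −2.16, where 2.03% and 0.242% of all probes were called lower. Scgb1a1, which encodes the secretoglobin of secretory cells, fell by 7.91 in wild-type (adjusted p = 1.05e-05) and by 6.24 in Myd88KO (adjusted p = 0.00069), where its spot on replicate 5 was marked as an outlier and the fit used the other 4 arrays. Scgb3a2, its relative, fell by 5.77 in wild-type (adjusted p = 0.000394), and had a difference of −3.37 in Myd88KO (adjusted p = 0.0326), where replicates 1 and 5 were at 7.94 and 9.10 and the other 3 at 3.07 to 5.52. The surfactant protein gene Sftpa1 fell in both genotypes, by 7.59 and 6.98. It was well above background on 4 of 5 injured wild-type and 3 of 5 injured Myd88KO arrays, so that the low values lie partly at the background. Without injured Myd88KO replicate 5 the counts were 6 and 6. That array had Scgb3a2 within the uninjured Myd88KO range of 8.59 to 9.43 and the highest Elf5 of its group.

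**Figure D5:**
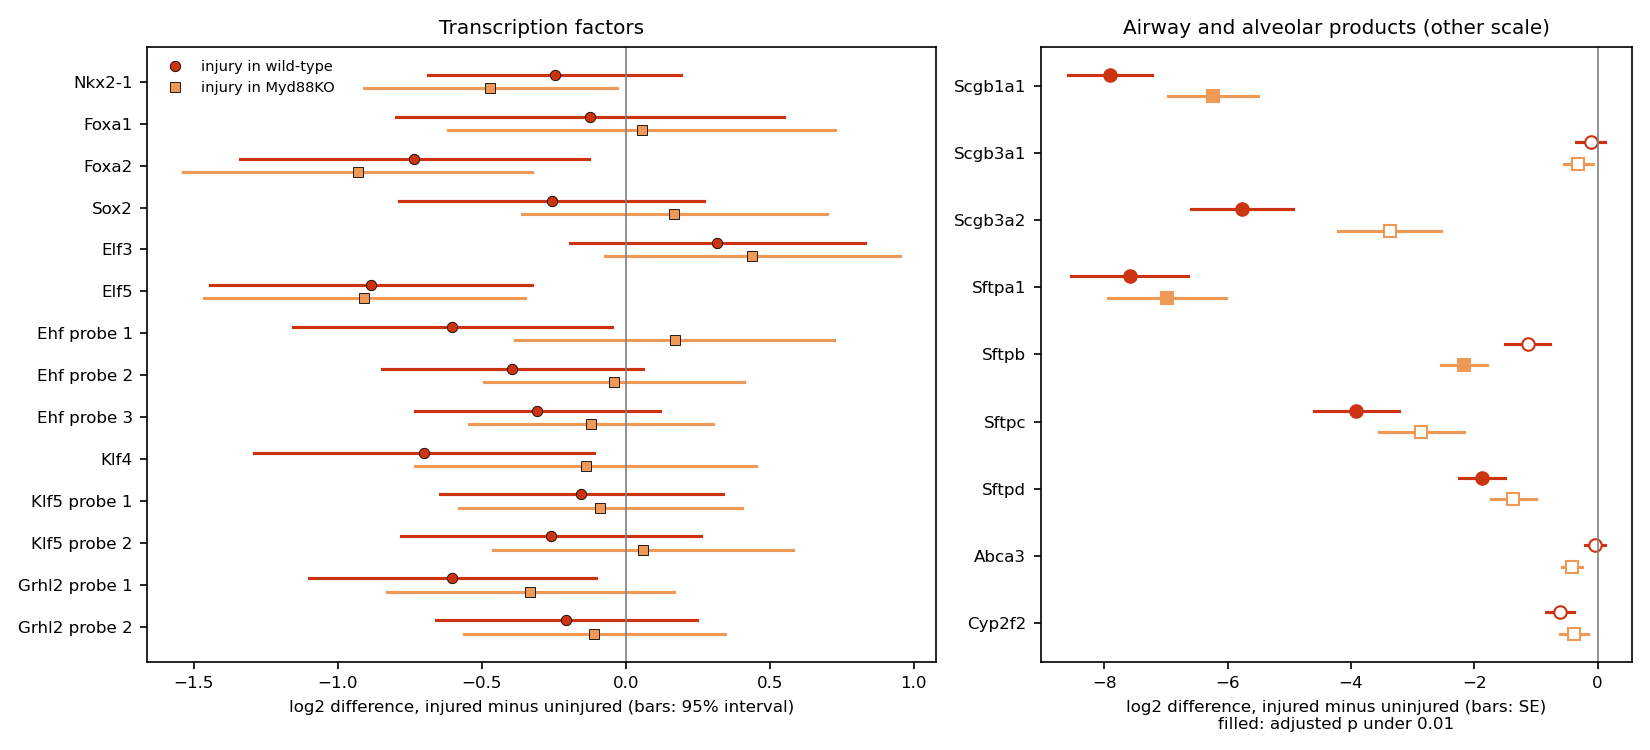
Log2 differences, injured minus uninjured, of the 14 tested probes with 95% intervals (left) and of 9 genes for airway and alveolar products with SE on a wider axis (right, filled where the limma adjusted p is under 0.01), in wild-type (circles) and Myd88KO (squares). All factors lie between −0.93 and 0.44, and Scgb1a1 lies at −7.91 and −6.24. Sftpb was not well above background on any injured wild-type array, so that its point there is no size of change.

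Other gene lists gave the setting. Among all probes limma called 2.03% lower and 3.24% higher after injury in wild-type, and 0.242% lower and 0.134% higher in Myd88KO. Ciliated genes, of 8, fell for 3 in wild-type (among them the dynein gene Dnah5, with a difference of −3.94, and the kinase gene Ak7, with −3.26) and for 0 in Myd88KO, where 3 were lower at an unadjusted p under 0.05, and the medians were −2.25 and −1.19. Without injured Myd88KO replicate 5 the counts were 3 and 1, and the Myd88KO median was −1.54. The arrays were not alike. The summed level of the 8 ciliated genes was 4.98 to 5.93 on uninjured wild-type arrays. On injured wild-type replicates 2, 3 and 4 it was 4.79 to 5.69, and replicates 1 and 5 were the low ones. In Myd88KO it was 5.30 to 5.47 without injury and 2.92 to 7.14 after it. Of 15 genes for junctions, keratins and epithelial differentiation, on which Grhl2, the Klf and the Ets factors are known to act, 1 rose in wild-type (Lcn2, an antimicrobial protein, by 3.62) and 1 fell (Ccl20, a chemokine, which was well above background on 5 of 5 uninjured and 2 of 5 injured wild-type arrays), with medians of 0.07 and 0.33 and no call in Myd88KO, where 2 were higher and 2 lower at an unadjusted p under 0.05. Without injured Myd88KO replicate 5 there was 1 call in Myd88KO, of a gene that was lower. Of 7 basal cell genes 0 passed in either genotype, with 1 higher at an unadjusted p under 0.05 in each and medians of 0.34 and 0.45. Of 6 gland genes 1 fell in each genotype, Bpifa1 (−2.24 and −2.36). Of 7 myeloid genes 4 rose in wild-type and 0 in Myd88KO, where 5 were higher at an unadjusted p under 0.05, with medians of 2.51 and 1.22. Without injured Myd88KO replicate 5 these counts were 5 and 2.

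Relatives of the factors in the same families were read too. Of 19 such genes 17 were tested and 0 passed after injury in either genotype by limma. Of all probes 5.26% passed in wild-type and 0.376% in Myd88KO, so that 0 of 17 says little. At an unadjusted p under 0.05, 5 were lower and 1 higher in wild-type and 4 were lower in Myd88KO. Lower among all probes were 11.9% and 12.2%. The medians of the relatives were −0.22 and −0.18. The Ets gene Elf1 had a difference of −0.48 in wild-type (adjusted p = 0.0262) and 0.07 in Myd88KO, and Klf9, a target of steroid hormones, had −0.60 (adjusted p = 0.0324) and −0.21. Foxa3, the relative of Foxa1 and Foxa2, had −0.66 and −0.79, and Sox21 had −0.06 and 0.22. The one-way test was not run on these lists.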

How the data were processed

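Each RNA sample of whole trachea was hybridised to its own one-colour Agilent array of the mouse genome, with 5 samples in each of 4 groups taken from the sample titles. The deposited files hold each spot's processed signal intensity, background-subtracted by Agilent Feature Extraction 9.5.1.1 per the file headers and not normalized by the authors between arrays. Their table of values held the same linear intensities, neither centred nor scaled, to within rounding (ratio of table to scanner value 0.995 to 1.005), and served as an alternative. Control spots and spots marked as outliers were left out, spots of 1 probe were averaged, and the log2 intensity minus the 75th percentile of the array was used. Probes well above background on at least 10 of 20 arrays were tested (26064 of 41174). Precision is limited by the number of arrays.

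Groups were compared with limma 3.58.1 in R 4.3.3 in 1 fit of all 4 groups, with Benjamini-Hochberg adjustment over all tested probes in each of 5 contrasts, called at an adjusted p under 0.01. The contrasts were also fitted after subtracting the pan-epithelial mean. The script was tested on simulated data. Probes were named from their accession (22951), symbol (6659), older symbol (3109) or array name (8455). No column of other samples was found (0).

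The factors, the lists and the rule for named genes (all members, Myd88, and the largest changes among called genes of each list) were chosen with earlier results of these data known. The one-way test, other backgrounds and scalings, filters, array weights, slide and day blocks and leaving out each array were tried as alternatives. The fits within a scanning day and the test between days were added after the data were seen. The labels give each sample as separate and say nothing of litters or days, so p-values measure the spread between these samples. Deviations from the group means of same-numbered samples of different groups correlated at −0.26 to 0.48 (median 0.24, 23 of 30 over 0.1). For samples of different number in different groups the range was −0.51 to 0.54 (median −0.08, 35 of 120 over 0.1). The slide was therefore tried as a batch block, and not as a pair, but only as an alternative. The main fit held no term for the slide or the scanning day. A further gene of the marker lists is not reported here. Protein sequences and the Myd88 probe's place relative to the deletion were not analysed here.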

Additional observations from a re-analysis of the deposited data

Results flagged for a closer look

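In 4 of 60 sets of 5 arrays, 1 array stood apart, measured as its gap to the nearest other array over the range of the group and set against a limit of 0.71. Chance does this in about 1 of 20 groups. Uninjured wild-type replicate 4 was lowest for Elf5 (0.772), and injured Myd88KO replicate 1 was lowest for Ehf probe 3 (0.788). Injured wild-type replicate 3 was highest for Klf5 probe 2 (0.786). Uninjured wild-type replicate 3 was highest for the pan-epithelial mean (0.802), the array on which Nkx2-1 was lowest and Klf4 highest in that group.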

How the results depend on the processing

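Of 794 values of 57 differences under alternatives other than leaving out an array, 30 had the opposite sign and 7 were newly called. Of the 1140 with 1 array left out, 21 had the opposite sign and 2 were called. At an adjusted p under 0.05 in place of 0.01, 12.7% of all probes were called for wild-type injury. The count of factor probes called, 0 in each comparison, became 1 for wild-type injury at that limit. With array weights it became 2 for Myd88KO injury (Foxa2 and Elf5, where 7.31% of all probes were called) and 8 and 4 relative to the pan-epithelial mean in wild-type and Myd88KO, where 49.4% and 18.8% of all probes were called. With the slide as a replicate block or the scanning day as a block it became 1 between injured genotypes (Ehf probe 1), and the blocks changed no other count. It was 1 for Myd88KO injury on the first day and 2 between injured genotypes on the second. Leaving out 1 array gave 0 to 1 for injury in each genotype, the 1 without injured Myd88KO replicate 5.

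These were the changes of sign. Array weights gave 0.033 for Elf3 and −0.042 for Elf5 between injured genotypes, median scaling gave 0.0073 for Ehf probe 2 in Myd88KO injury, and quantile normalization gave 0.021 and −0.021 for Klf5 probe 1 in Myd88KO injury and between uninjured genotypes. The first day gave 0.032 for Nkx2-1, 0.64 for Foxa1, 0.31 for Sox2, 0.31 for Klf5 probe 1 and 0.36 for Grhl2 probe 2 in wild-type injury, and −0.048 for Foxa1, −0.024 for Ehf probe 1 and 0.012 for Klf5 probe 1 in Myd88KO injury. It gave 0.051 for Klf5 probe 2 between uninjured genotypes. Between injured genotypes it gave −0.26 for Foxa1, −0.25 for Foxa2, −0.048 for Sox2, −0.22 for Elf5, −0.095 for Klf5 probe 1, and −0.20 and −0.14 for Grhl2 probes 1 and 2. The second day gave −0.60 for Elf3 in wild-type injury, and 0.076 for Ehf probe 2 and −0.16 for Klf5 probe 2 in Myd88KO injury. Between uninjured genotypes it gave −0.31 for Nkx2-1, −0.25 for Foxa1, −0.059 for Sox2, −0.23 for Klf5 probe 1 and −0.25 for Grhl2 probe 2, and between injured genotypes 0.30 for Elf3. The cause was not tested.

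With 1 array left out, wild-type injury ran from −0.32 to 0.20 for Foxa1. Myd88KO injury ran from −0.10 to 0.18 for Foxa1, −0.0094 to 0.28, −0.12 to 0.12 and −0.19 to 0.070 for Ehf probes 1, 2 and 3, −0.26 to 0.047 for Klf4, and −0.18 to 0.073 and −0.15 to 0.20 for Klf5 probes 1 and 2. Between uninjured genotypes the range was −0.0055 to 0.16 for Sox2, and −0.10 to 0.14 and −0.26 to 0.062 for Klf5 probes 1 and 2. Between injured genotypes it was −0.11 to 0.28 for Elf5 and −0.047 to 0.26 for Klf5 probe 1. All 14 tested probes were well above background on all 20 arrays.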
